A study of Mus musculus with 2 samples.

Results

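Long noncoding RNA (lncRNA) genes were followed through 2 sets of loci assembled from RNA-seq reads of mouse bone marrow cells. A locus is a stretch of the genome that StringTie built from overlapping aligned reads. It was given to an lncRNA gene when, among genes of the same strand, that one filled most of it with exons, with a minimum of 50 exon bases. The gene types taken from the GENCODE vM21 annotation of GRCm38 were lincRNA, antisense, processed_transcript, bidirectional_promoter_lncRNA, sense_intronic and macro_lncRNA. Loci without a strand were left out. Loci of either library were given to 14213 genes, of which 942 were lncRNA genes. They comprised 393 lincRNA, 288 antisense, 185 processed_transcript, 39 bidirectional_promoter_lncRNA and 37 sense_intronic genes, and 0 macro_lncRNA genes. A gene's level was the TPM summed over its loci, a value per transcript length scaled so that the assembled loci of a library add up to 1000000.

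The bone marrow cells came from WT mice and all received M-CSF, the macrophage growth factor. M is the culture with M-CSF alone, and MR is the culture to which RANKL, the osteoclast differentiation factor, was added after 2 days for a further 2 days per the labels. The general culture method of the study gives a longer RANKL period, and the day of RNA harvest is not named. Each condition was 1 library of total RNA, so that no difference below has a replicate check and no test was made. The age and sex of the mice and the number pooled are not given in the sources used here. No kit that records the strand of a fragment is named for the libraries. In a bulk culture, more RNA per cell and more cells of a type cannot be told apart.

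An lncRNA is a transcript without a recognised open reading frame of functional length. Some act in the nucleus, where they hold chromatin or nuclear bodies together, and others are mainly carriers, whose introns release small nucleolar RNAs (snoRNAs) or whose hairpins are cut into microRNAs. Antisense lncRNAs overlap another gene on the opposite strand, and divergent lncRNAs start head to head with a coding gene and share its promoter region. Macrophages are known for lncRNAs induced by inflammatory signals, and NFAT, AP-1 and PU.1 are transcription factors of the osteoclast lineage.

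The microRNAs carried by Mir17hg and F630028O10Rik are shown first, since these hosts stood among the larger differences between M and MR. Mature sequences from RefSeq on GRCm38.p6 are written with the seed, bases 2 to 8, in capitals. Within the Mir17hg cluster, miR-17-5p and miR-20a-5p have 1 seed in common, miR-19a-3p and miR-19b-3p a second, and miR-18a-5p and miR-92a-3p each have a seed of their own. The libraries did not measure mature microRNAs.
miR-17-5p: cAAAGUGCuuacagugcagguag
miR-20a-5p: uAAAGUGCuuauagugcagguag
miR-19a-3p: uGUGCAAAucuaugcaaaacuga
miR-19b-3p: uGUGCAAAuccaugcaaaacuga
miR-18a-5p: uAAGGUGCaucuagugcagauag
miR-92a-3p: uAUUGCACuugucccggccug
miR-223-3p: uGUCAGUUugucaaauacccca

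Start sites follow for 3 of the snoRNA hosts whose TPM was higher in MR by over 1 log2 unit. The start of Dancr, which was lower in MR by over 1 log2 unit, had a run of 4 and is not printed. Each run covers 10 bases before to 20 bases from the RefSeq start on GRCm38.p6, with the longest run of C or T near the start in capitals. The 2 Gas5 runs lie at chr1:161034591-161034620 and chr1:161035156-161035185 on the plus strand. Those of Snhg12 and Snhg8 lie at chr4:132308668-132308697 on the plus strand and chr3:123508317-123508346 on the minus strand. Transcripts that begin with a run of pyrimidines are known for translational control together with ribosomal protein mRNAs.
Gas5, first start: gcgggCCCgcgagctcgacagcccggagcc
Gas5, second start: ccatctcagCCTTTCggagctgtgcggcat
Snhg12: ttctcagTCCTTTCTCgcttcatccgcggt
Snhg8: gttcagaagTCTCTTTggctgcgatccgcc

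Promoter windows are shown for 5 lncRNA genes that were higher or lower in MR and whose loci did not share 50 exon bases with a coding gene. Each RefSeq window on GRCm38.p6 spans 250 bases before to 50 bases from the start, and capitals mark letters of the AP-1 motif (TGACTCA or TGAGTCA), the NFAT motif (GGAAAA) or the PU.1 motif (GAGGAA followed directly by GT) on either strand. No motif of the set contains another. The windows are chr3:122391947-122392246 (minus strand) for Gm4610, chr8:120228181-120228480 (minus) for A330074K22Rik and chr17:24528001-24528300 (plus) for Rab26os, which were higher in MR. Those of AW112010, chr19:11050517-11050816 (minus), and Gm34643, chr14:103012625-103012924 (plus), belong to genes that were lower. A330074K22Rik and Gm34643 hold the AP-1 letters, Rab26os the PU.1 letters, and Gm4610 and AW112010 the NFAT letters. A match is a description of the letters and not a binding site.
Gm4610: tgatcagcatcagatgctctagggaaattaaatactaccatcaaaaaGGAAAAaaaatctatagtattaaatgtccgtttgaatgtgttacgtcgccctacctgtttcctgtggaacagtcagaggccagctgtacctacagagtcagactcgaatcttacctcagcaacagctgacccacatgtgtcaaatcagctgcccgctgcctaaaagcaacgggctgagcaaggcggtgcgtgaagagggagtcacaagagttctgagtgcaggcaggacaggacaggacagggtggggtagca
A330074K22Rik: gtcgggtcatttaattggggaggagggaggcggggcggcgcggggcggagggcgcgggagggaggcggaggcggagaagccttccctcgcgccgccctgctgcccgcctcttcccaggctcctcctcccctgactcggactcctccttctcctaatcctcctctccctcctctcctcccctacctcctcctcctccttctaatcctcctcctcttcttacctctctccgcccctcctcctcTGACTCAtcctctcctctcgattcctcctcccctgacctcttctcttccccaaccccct
Rab26os: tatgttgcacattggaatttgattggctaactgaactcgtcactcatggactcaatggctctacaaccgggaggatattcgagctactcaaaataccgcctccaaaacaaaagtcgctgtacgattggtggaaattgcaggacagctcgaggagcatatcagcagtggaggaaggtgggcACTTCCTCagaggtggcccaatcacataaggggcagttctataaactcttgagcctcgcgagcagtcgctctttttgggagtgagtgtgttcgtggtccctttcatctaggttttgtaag
AW112010: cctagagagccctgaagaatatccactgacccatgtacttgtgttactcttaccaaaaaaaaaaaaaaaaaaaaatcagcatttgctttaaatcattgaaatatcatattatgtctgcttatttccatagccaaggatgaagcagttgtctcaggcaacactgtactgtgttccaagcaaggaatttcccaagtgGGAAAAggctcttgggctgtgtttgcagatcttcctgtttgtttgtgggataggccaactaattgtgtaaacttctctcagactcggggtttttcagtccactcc
Gm34643: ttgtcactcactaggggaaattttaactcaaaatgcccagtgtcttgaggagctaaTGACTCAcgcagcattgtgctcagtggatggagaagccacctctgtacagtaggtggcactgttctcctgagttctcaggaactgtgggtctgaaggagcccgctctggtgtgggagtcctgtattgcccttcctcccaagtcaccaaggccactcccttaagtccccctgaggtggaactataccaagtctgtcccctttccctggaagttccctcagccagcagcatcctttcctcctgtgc

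The tables held 19422 assembled loci for M and 19922 for MR, and the most frequent ratio of listed coverage to FPKM put the aligned bases at 3.63 Gb and 2.98 Gb. Osteoclast markers separated the libraries: the TPM of 10 genes, Acp5, Ctsk and Mmp9 among them, summed to 152 in M and 25318 in MR, and 4 of them had no locus in M. The sum over 7 macrophage and monocyte markers was 20294 in M and 7902 in MR, and that over 6 neutrophil markers was 923 and 590. Of the 7 macrophage markers, Csf1r alone was higher in MR, and of the 6 neutrophil markers Elane alone was. The sums were 7.46 and 7.04 over 4 lymphoid markers, with Cd3e in neither library, 15.8 and 19.9 over 4 stromal markers, and 182 and 177 over 4 dendritic markers. The part of these other cells in the lncRNA values was not tested.

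The lncRNA genes took similar shares of the 2 libraries. In M, 667 of them had a locus and their TPM summed to 10911, or 1.09% of all assembled TPM. In MR, 674 had a locus and the sum was 10664, or 1.07%. A locus was present in both libraries for 399 of the 942 genes. A single gene, Gm42418, held 27.1% of the lncRNA TPM in M and 29.0% in MR. It lies at a ribosomal RNA repeat in the assembly, and the part of ribosomal RNA reads in its TPM was not tested. Most lncRNA genes were low: 717 reached 1 TPM in M, MR or both and entered the comparison, and the other 225 did not. The median of the higher of their 2 TPM values was 3.02, against 21.5 for protein-coding genes. Of the 717 genes, 137 reached a TPM of 10 and 23 reached 100. Their annotated exons had a median of 1784 bases, against 4509 for protein-coding genes.

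More lncRNA genes than genes in general were past a log2 ratio of 1 or -1, and most of these had a locus in 1 library alone. The log2 ratio of MR to M, taken after 1 was added to each TPM, was above 1 for 234 of the 717 lncRNA genes (32.6%) and below -1 for 217 (30.3%). Over all 13228 genes past the same filter, 20.6% were above 1 and 13.4% below -1. The median was 0.04 for lncRNA genes and 0.19 for all genes, and the interquartile range of lncRNA genes ran from -1.13 to 1.24. At a pseudocount of 1, a gene past the filter with a locus in 1 library alone was at or past 1 or -1 by construction. The larger shares of lncRNA genes therefore include how often a gene was assembled in 1 library alone. No locus was assembled in M for 183 lncRNA genes (25.5%), against 7.57% of all genes, and none in MR for 169 (23.6%), against 5.03%. Among the 365 lncRNA genes with a locus in both libraries, 51 were above 1 and 48 (13.2%) below -1, against 14.9% and 9.62% of all genes so restricted. In this selection the share above 1 was near that of all genes.

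A second feature of the loci was that many lncRNA genes shared their position with coding exons. Of the 717 genes, 239 had loci that held at least 50 exon bases of a protein-coding gene or pseudogene on the opposite strand, and 56 held such bases on the same strand. Of the 352 genes without a locus in 1 library, 131 had another locus of that library across at least 50 bases of the position. Together 323 genes had at least 1 of these features, and the other 394 are called clear here. Of all genes past the filter, 73.7% were clear by the same definition, and of the lncRNA genes 55.0%. Of the 394 clear lncRNA genes, 131 (33.2%) were above 1 and 111 (28.2%) below -1, against 20.4% and 12.6% of all clear genes. With a locus in both libraries, 29 of 210 clear lncRNA genes (13.8%) lay above 1 and 29 (13.8%) below -1, against 15.2% and 9.82%. The clear class was defined after the values were seen.

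**Figure D1:**
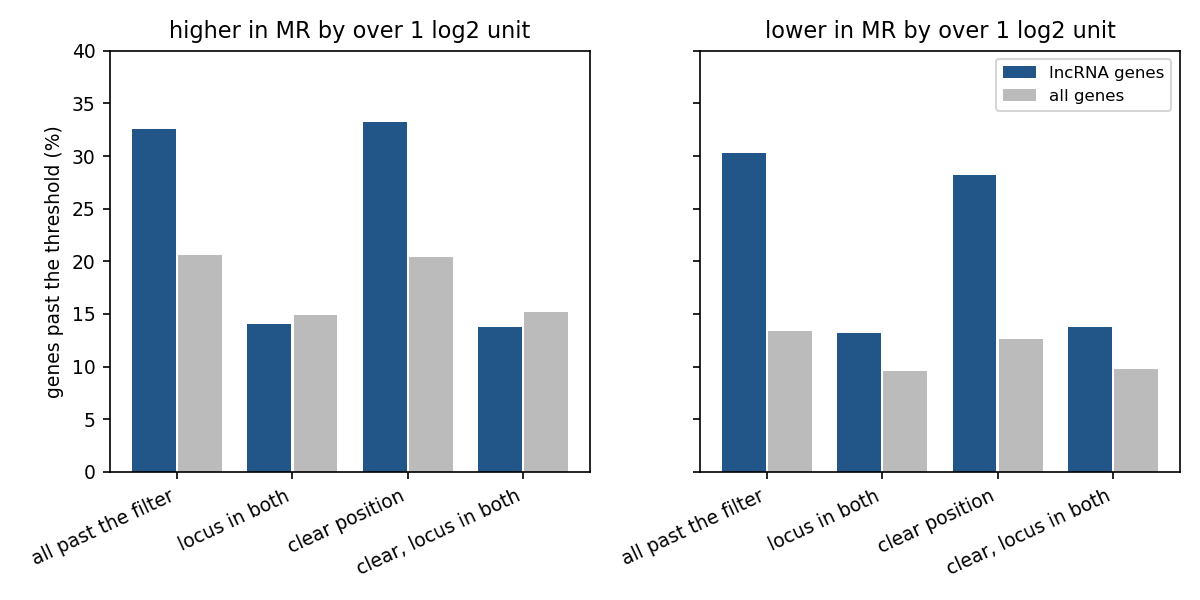
Share of genes (%) whose log2 ratio of MR to M was above 1 (left) or below -1 (right), for lncRNA genes (blue) and all genes (grey), under 4 selections. The blue bars stood at 32.6% and 30.3% over all genes past the filter and at 13.8% on both sides for clear genes with a locus in both libraries.

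Most of the genes with the largest listed differences were not clear. Another locus across the position was looked for only where a gene had no locus in M or in MR. Most of the genes listed here were of that kind, so their share that was not clear is partly built in. Whether shared positions gave rise to these differences was not tested. Of the 10 lncRNA genes with the lowest log2 ratios among those with a TPM of at least 2, only AW112010 was clear, and of the 10 with the highest ratios only 4833415N18Rik, Gm4610 and Gm5532 were. Gm41396 was listed at 764 TPM in M with no locus in MR, and its locus held 1873 exon bases of the tubulin gene Tuba1b, which lies on the other strand and had the locus at that position in MR. Gm47076 (108 TPM in M) lay in the same way across the tubulin gene Tubb2a, Gm15884 (79.8) across the prohibitin gene Phb2, Gm49172 (75.6) across the scramblase gene Ano6 and Gm40117 (68.2) across Cttnbp2nl. A430110L20Rik (48.2) was opposite Wdr26, 2310031A07Rik (26.2) opposite the Mediator subunit gene Med7, and Gm49719 (16.4) opposite Tagap1, while Gm20707 (27.97) held exons of Zfp984. Among those higher in MR, Gm26718 (32.2 TPM in MR) lay opposite the mitochondrial phosphatase gene Pgam5 and Gm13610 (20.4) opposite Prrc2b. D130062J10Rik (25.9) held exons of its host gene Fcho2, and A530040E14Rik (13.6) and Gm11613 (13.6) met another locus in M. With loci without strand added, A530040E14Rik was at 104 TPM in M, and its log2 ratio turned from 3.87 to -2.85. The locus of 2310058D17Rik, at 3.04 TPM in M and 120 in MR, held 1947 exon bases of the ubiquitin ligase gene Rnf187 on its own strand. That of 4930562F07Rik, at 1.73 and 33.8 TPM, lay opposite 4930523C07Rik. For these genes, lncRNA reads and reads of the coding gene cannot be told apart in the tables.

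**Figure D2:**
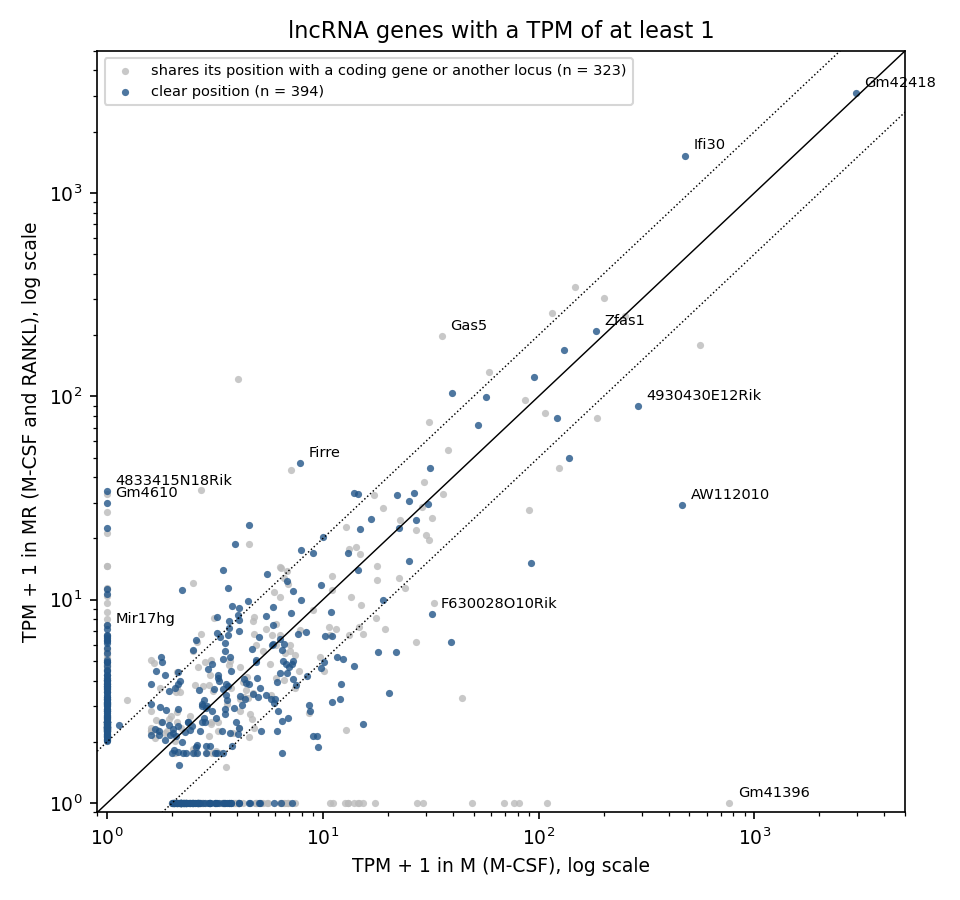
TPM + 1 of the 717 lncRNA genes in M (horizontal) and MR (vertical), both on log scales. Blue points are the 394 clear genes and grey points the 323 with a shared position, the solid line is equality, and dotted lines are log2 ratios of 1 and -1. AW112010 lies far below the lines, Firre and Gas5 above them, and Gm41396 on the lower edge at 764 TPM in M.

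The clear lncRNA genes with the highest ratios were present in MR and without a locus in M. The intergenic gene 4833415N18Rik (chr16:11778429-11781500, plus strand) was at 33.1 TPM in MR with a coverage of 41.4 reads per base. Gm4610 (chr3:122377097-122391811, minus strand) followed at 28.9 TPM and a coverage of 38.3. It overlaps Bcar3, which encodes an adaptor of integrin signalling and is transcribed from the other strand, and Bcar3 itself was at 7.55 TPM in M and 99.0 in MR. The locus of Gm4610 began 1 base from the RefSeq start whose window is printed above. Gm5532 (chr1:155520173-155527143, minus strand) was at 21.4 TPM in MR, 4930556M19Rik at 10.3 and AI463229 at 9.61. Ifngas1, named for its place beside the interferon gamma gene, was at 5.69 TPM in MR alone, while Ifng had no locus in either library. Of the 184 clear lncRNA genes with a locus in 1 library alone, 102 had none in M and 82 none in MR. Over all genes past the filter, clear or not, more also lacked a locus in M (7.57%) than in MR (5.03%). The median TPM of these 184 lncRNA genes was 1.63, and 15 of them reached 5 TPM, 13 in MR and 2 in M. The share over all genes at 5 TPM was not taken.

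Firre had the highest log2 ratio, at a pseudocount of 1, among the clear lncRNA genes with a locus in both libraries. At a pseudocount of 0.1, the log2 ratio of Firre was 2.73 and the log2 ratio of 2500002B13Rik, at 1.23 and 10.2 TPM, was 2.95. Firre is an X-linked lncRNA (chrX:50555744-50635321, minus strand) that holds together chromosomal regions in the nucleus. Firre stood at 6.82 TPM in M and at 45.8 TPM in MR, which gave a ratio of 6.71 (log2 2.58). The coverage of its locus with the most TPM was 5.87 and 41.9. That locus spanned chrX:50557642-50598286 in M, short of the annotated start, and chrX:50555751-50635307 in MR, close to the whole gene. By coverage summed over its loci, the log2 ratio of Firre was 2.12. The lincRNA gene A330074K22Rik was at 2.46 and 13.1 TPM (log2 ratio 2.03), and AU020206 at 2.63 and 10.4 (1.66). Processed transcript 2410006H16Rik was at 38.5 and 103 TPM (1.39), and Lrrc75a, 77 bases away, at 5.37 and 18.1. Lockd, which lies downstream of the cell cycle inhibitor gene Cdkn1b, differed by the measure used: its TPM was 3.56 in M and 22.4 in MR, whereas its listed coverage was 5.98 and 2.17, a log2 ratio of -0.79 per aligned base. Of the 29 clear genes with a locus in both libraries and a TPM ratio above 1, 21 were also above 1 by coverage per aligned base, and 21 of the 29 below -1 were also below it. These genes other than Firre were named after their values were seen.

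AW112010 had the lowest log2 ratio among the clear lncRNA genes at a pseudocount of 1. At a pseudocount of 0.1, the log2 ratio of AW112010 was -4.03 and the log2 ratio of 5031425E22Rik, without a locus in MR, was -5.98. This interferon-inducible lncRNA of immune cells (chr19:11047612-11055808, minus strand) was at 462 TPM in M and 28.2 TPM in MR, 16.4-fold lower (log2 ratio -3.99). Its coverage was 500 and 37.4. The locus began 5274 bases from the RefSeq start in M, on the upstream side, and 31 bases from it in MR. Gm13822, antisense to the interferon-stimulated gene Oasl1, was at 38.2 and 5.17 TPM (log2 ratio -2.67), and Oasl1 at 510 and 285. Gm13012, antisense to Ece1, the enzyme that cleaves endothelin precursors, was at 19.2 and 2.47 TPM (-2.54), and Ece1 at 23.6 and 7.35. Gm34643, 22520 bases from the itaconate enzyme gene Acod1, was at 8.03 and 1.13 TPM (-2.08), and Acod1 at 369 and 33.1. The antisense gene 4930455G09Rik was at 20.8 and 4.51 TPM (-1.98). Gm34084 was at 91.6 and 14.2 TPM (-2.61), but by coverage summed over its loci the log2 ratio was -0.41. The coverage of its locus with the most TPM was 25.9 and 16.4. No locus in MR was assembled for 5031425E22Rik, which was at 6.23 TPM in M and starts 172 bases from the histone methyltransferase family gene Kmt2e. Kmt2e was at 22.3 TPM in M and 24.2 in MR.

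The 10 most abundant lncRNA genes held 57.7% of the lncRNA TPM in M and 56.3% in MR. Gm42418 was at 2959 TPM in M and 3090 TPM in MR (log2 ratio 0.06). Zfas1, a snoRNA host, was at 184 and 209 (0.18), and Gm37401, whose locus lay opposite the GTPase gene Rhoa, at 252 and 247 (-0.02). Of the 10, 2 are genes that RefSeq lists as protein-coding: Ifi30, the lysosomal thiol reductase of antigen processing, at 476 and 1523 TPM (1.68), and Cct6a, a chaperonin subunit, at 146 and 345 (1.23). In all, 24 of the 717 genes are protein-coding in RefSeq. Gm47428, opposite the ferritin pseudogene Ftl1-ps1, was at 560 and 177 TPM (-1.66), and Ndufb1-ps, opposite exons of Cpsf2, at 200 and 302 (0.59). The antisense gene 4930430E12Rik (chr4:6352105-6357530, minus strand) was clear and was at 287 and 88.2 TPM (-1.69), with a coverage of 481 and 116. Its nearest coding gene, Sdcbp, 8120 bases away, was at 1084 and 505 TPM. Gm41396 and AW112010 complete the 10.

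The list of 20 snoRNA host symbols held 15 lncRNA genes with a locus, and 14 passed the filter. Mir17hg had been put on it, which carries microRNAs, and without it 5 of 13 were above 1 and 1 below -1, with a median of 0.35. Above 1 and below -1 lay 32.6% and 30.3% of all lncRNA genes, and 20.6% and 13.4% of all genes. Gas5, named for growth arrest and host of box C/D snoRNAs, was at 34.5 TPM in M and 197 in MR, 5.70-fold higher (log2 ratio 2.48), with a coverage of 42.0 and 116. Snhg6 was at 57.7 and 131 TPM (1.17), Snhg8 at 13.5 and 32.3 (1.19), and Epb41l4aos at 13.0 and 32.4 (1.25). Snhg12 was at 9.01 and 19.3 TPM (1.02), which was 0.86 with median-of-ratios scaling and 0.27 by coverage. Snhg15, at 8.01 and 15.9, reached 0.91. Snhg1 (21.6 and 21.5 TPM), Snhg3 (29.7 and 28.6), Snhg5 (7.31 and 5.90), Snhg17 (4.88 and 6.48) and Snhg20 (24.0 and 29.6) differed by under 1. Dancr, at 1.60 TPM in M, had no locus in MR, nor had Snhg18, at 0.99. Under median-of-ratios scaling 4 of the 13 were above 1, with a median of 0.20. Gas5 and Snhg6 were not clear, since 72 and 52 exon bases of Zbtb37 and Mcmdc2 on the other strand lay in their loci. Zbtb37 was at 2.32 and 2.36 TPM.

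A run of at least 8 pyrimidines between 5 bases before and 15 bases from the start was present at 3 of 12 snoRNA hosts with a RefSeq window, against 7.84% of all 27025 genes with one. Among lncRNA genes with a window, the share was 9.5% of those past the filter and 12% of the clear ones. The 3 were Snhg1, Snhg12 and Snhg18, of which Snhg18 was under the TPM filter. The second start of Gas5 carried a run of 6 and Snhg8 a run of 7, as printed above. The AP-1 and PU.1 letters were in the windows of 0 of the 12, and the NFAT letters in those of 5 (41.7%, against 26.1% of all genes).

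**Figure D3:**
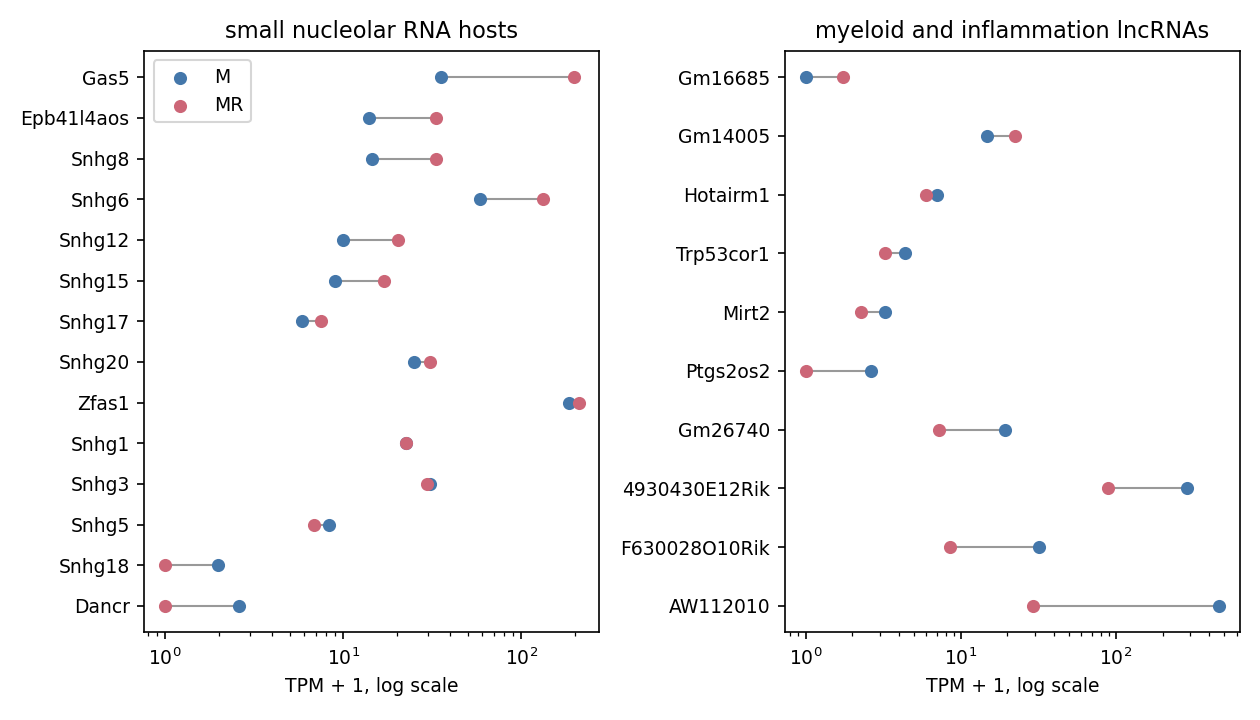
TPM + 1 on a log scale in M (blue) and MR (red) for the snoRNA hosts without Mir17hg (left) and the myeloid and inflammation lncRNAs (right) that had a locus, ordered by log2 ratio. Each gene is 1 point per library, joined by a line. Gas5 stands highest in the order on the left at 34.5 and 197 TPM, and AW112010 lowest on the right at 462 and 28.2 TPM.

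Of 16 symbols listed as microRNA hosts, 8 were lncRNA genes with a locus and 7 passed the filter, 2 above 1 and 2 below -1. These shares were near the 32.6% and 30.3% of all lncRNA genes, and values of single genes follow. Mir17hg, which carries the miR-17 cluster, had no locus in M and 6.19 TPM in MR, with a coverage of 8.20. Of its 6 hairpins, that of miR-92a alone lay within the assembled locus, chr14:115044401-115046552, which began downstream of the other 5. Mir99ahg was at 1.62 and 5.23 TPM, Mir22hg at 17.9 and 27.4, and Ftx at 2.67 and 3.79. The coverage of Mir99ahg in its locus with the most TPM was only 0.058 in M and 1.16 in MR. By coverage summed over its loci the log2 ratio was 1.75. For Mir99ahg and Ftx, the locus with the most TPM held 0 of the gene's 2 hairpins in either library. Gm43388 was at 9.16 and 3.46 TPM, and Mirt1, at 1.68 in M, had no locus in MR. These were the 2 below -1. No RefSeq hairpin lay inside either of them, nor inside Gm13067, the listed gene under the filter. Dleu2, host of miR-16, was at 13.9 and 15.9 TPM, but by coverage its log2 ratio was -1.36. A search of hairpin positions found 13 lncRNA genes with a RefSeq hairpin inside, 12 of them past the filter. Among these was F630028O10Rik (chrX:96239926-96243636, plus strand), which contains the hairpin of miR-223, a microRNA of granulocytes and monocytes. It was at 31.1 TPM in M and 7.52 in MR (log2 ratio -1.91), with a coverage of 52.2 and 9.97, and its locus held the hairpin in both libraries. With loci without strand added, its TPM in M was 117. Neutrophil markers were lower in MR as well, as given above, and their part in this difference was not tested.

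Several of the best known lncRNAs were assembled under another strand, in libraries for which no kit that records strand is named. Malat1, an abundant nuclear lncRNA (chr19:5795690-5802672, minus strand), had no locus on its own strand. A locus on the plus strand ran to within 70 bases of its start coordinate and 14 bases of its end coordinate in M, and it was at 327 TPM in M and 416 in MR. The position of 2900097C17Rik, known as Norad, which binds Pumilio proteins, held a plus-strand locus of 89.1 and 111 TPM, opposite to the gene and equal to its span within 17 bases at each end. At Mir142hg, host of the haematopoietic miR-142, the opposite-strand locus was at 19.7 and 15.3 TPM. Neat1, the scaffold of paraspeckles, was listed at 1.18 TPM in M and had no locus in MR by strand. Loci without strand across its first part were at 382 and 408 TPM. Nron lay inside the locus of Mvb12b on the other strand. Assigned by the rule, the structural list of 15 symbols had 7 lncRNA genes with a locus, of which 6 passed the filter, with Firre above 1, Neat1 below -1 and a median of 0.00. Tug1, a chromatin-associated lncRNA, was at 25.5 and 32.5 TPM, and 1700020I14Rik, known as Cyrano, at 13.6 and 12.9. Pvt1, neighbour of Myc, was at 3.58 and 1.73, and Lncpint at 0.17 TPM in M alone. Miat, the microRNA host Mir155hg and, of the imprinted and X inactivation genes, Xist, H19 and Meg3 had no locus on either strand.

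**Figure D4:**
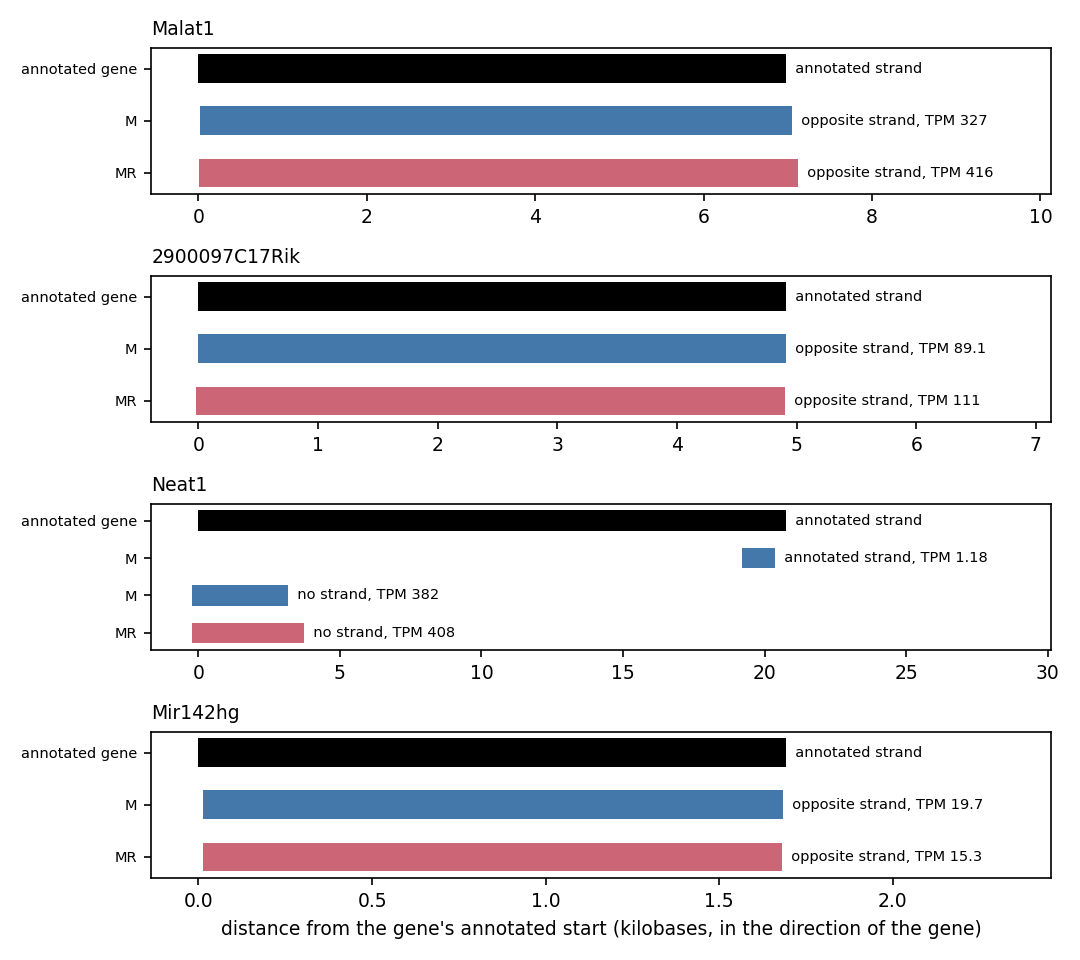
Extent of the annotated gene (black) and of the assembled loci in M (blue) and MR (red) at 4 lncRNA genes, in kilobases from the annotated start in the direction of the gene, with each locus's strand relative to the gene and its TPM. At Malat1, 2900097C17Rik and Mir142hg the loci match the gene's extent on the opposite strand, and at Neat1 the loci without strand cover the first part of the gene.

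Imprinted and X inactivation loci were low or absent. Of 13 symbols, 4 had a locus and 3 passed the filter. Airn, which silences Igf2r in cis, had no locus in M and 4.69 TPM in MR, but its locus held 519 exon bases of Igf2r, which was at 45.6 and 109 TPM. Jpx, an activator of Xist, was at 2.20 and 0.81 TPM, and Snhg14, which extends over the Prader-Willi region, at 0.75 TPM in MR alone. Kcnq1ot1 had a locus without strand at 3.45 TPM in M alone.

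Of 21 symbols of myeloid and inflammation lncRNAs, 10 were lncRNA genes with a locus and 9 passed the filter, of which 5 were below -1, 0 above 1, and the median was -1.40. Below -1 lay 30.3% of all lncRNA genes and 13.4% of all genes. The 5 were AW112010, F630028O10Rik, 4930430E12Rik, Gm26740 (18.4 and 6.21 TPM) and Ptgs2os2, or lincRNA-Cox2, at 1.63 TPM in M with no locus in MR. Gm26740 was at -0.82 by coverage. Hotairm1, of the Hoxa locus, was at 6.03 and 4.97 TPM, Mirt2 at 2.26 and 1.27, and Trp53cor1, a p53 target, at 3.38 and 2.25. Gm14005, known as Morrbid, was the one gene of the 9 with a higher TPM in MR, at 13.9 and 21.3, and its neighbour Bcl2l11, the apoptosis gene it is known to restrain, was at 13.8 and 41.8. By coverage the log2 ratio of Gm14005 was -1.28. Gm16685 was at 0.75 TPM in MR alone, under the filter. The count below -1 was 5 with median-of-ratios scaling, 4 with FPKM (median -0.81) and 4 of the 8 genes with a locus in both libraries (median -0.98). By coverage it was 5 with Gm14005 in place of Gm26740. The list was chosen with results of these libraries known, and macrophage markers were lower in MR, as given above. Their part in these values was not tested.

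The annotated types differed in the balance of directions. Of 31 bidirectional_promoter_lncRNA genes past the filter, 14 were above 1 and 2 below -1, with a median of 0.59, which stood at 0.42 after median-of-ratios scaling. Of the 23 clear ones, 11 were above 1 and 1 below -1, with a median of 0.16. Of the 19 with a locus in both libraries, 3 were above 1 and 1 below -1, with a median of 0.08. Antisense genes went the other way, with 51 of 215 above 1 and 76 below -1 and a median of -0.29, and 131 of them had coding exons on the other strand in their loci. For lincRNA genes the counts were 115 and 99 of 297, for processed_transcript genes 43 and 29 of 146, and for sense_intronic genes 11 and 11 of 28. With a locus in both libraries, the counts above 1 and below -1 were 6 and 18 of 112 antisense genes and 25 and 23 of 131 lincRNA genes. They were 16 and 5 of 95 processed_transcript genes and 1 and 1 of 8 sense_intronic genes. Without that restriction, the shares were 32.6% and 30.3% over all lncRNA genes and 20.6% and 13.4% over all genes, as given above.

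The ratios of divergent lncRNAs and their coding neighbours were set side by side, as a description without a test. Clear lncRNA genes that start within 2000 bases of a coding gene, head to head with it, numbered 79, and 70 of them started within 500 bases. For the 76 whose neighbour passed the filter, Pearson's r between the log2 ratios was 0.50 and Spearman's rho 0.50. For 65 clear lncRNA genes that overlap a coding gene on the opposite strand the values were 0.26 and 0.09, and for 182 with a nearest neighbour elsewhere 0.16 and 0.20. Restricted to loci in both libraries, r was 0.38 over 46 head-to-head pairs, -0.00 over 35 overlapping pairs and 0.00 over 96 other pairs. All points come from the same 2 libraries, and genes are not replicates. The 3 head-to-head neighbours with the largest ratios were Rai14, Sdc1 and Msi2. The cytoskeletal gene Rai14, 212 bases from 4930556M19Rik, was at 3.96 TPM in M and 135 in MR. The syndecan gene Sdc1, 142 bases from Gm4755, was at 4.97 and 160, and Gm4755 was at 1.36 TPM in MR alone. The RNA-binding protein gene Msi2 starts 132 bases from C030037D09Rik. C030037D09Rik was at 0.80 and 3.95 TPM and Msi2 at 3.44 and 73.3. Snhg10 had no locus in M and 2.11 TPM in MR, and Glrx5, a gene of iron-sulphur cluster assembly that starts 409 bases away, was at 54.4 and 178. In contrast, Snhg1 was level beside Slc3a2, an amino acid transporter subunit at 377 and 171 TPM.

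**Figure D5:**
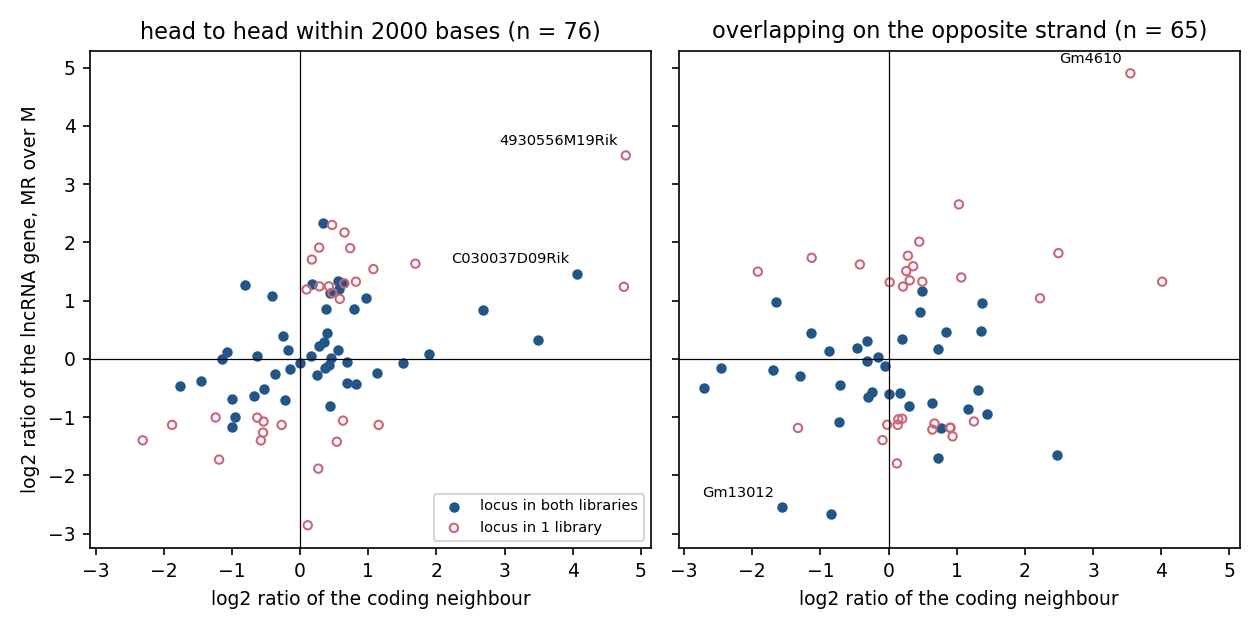
Log2 ratio of MR to M of clear lncRNA genes (vertical) against that of their coding neighbour (horizontal), for 76 head-to-head pairs (left) and 65 pairs that overlap on opposite strands (right). Filled points had an lncRNA locus in both libraries and open points in 1. 4930556M19Rik and C030037D09Rik lie to the upper right on the left, and Gm4610 on the right.

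Promoter letters were compared with those of all genes that have a RefSeq window of 300 bases. Of the 717 lncRNA genes, 421 matched a window by symbol. The AP-1 letters were in a window of 10.5% of 258 clear lncRNA genes, against 5.95% of all genes, and the PU.1 letters in 7.75% against 3.69%. The NFAT letters, a shorter word, were in 29.5% against 26.1%. By direction, AP-1 letters were in the windows of 11 of 83 clear genes above 1 (13.3%) and 9 of 70 below -1 (12.9%), and PU.1 letters in 7 (8.43%) and 6 (8.57%). NFAT letters were in 26 (31.3%) and 20 (28.6%). Among the printed windows, the AP-1 letters of A330074K22Rik lay 9 bases before the start and the PU.1 letters of Rab26os 70 bases before it. Rab26os was at 4.77 TPM in MR with no locus in M, and its start lay 11 bases from that of its locus. Other counted windows lay far from the assembled locus. The starts of Junos were 29251 and 81924 bases from that of its locus, and a start of Gm13986 179983 bases. The shares are thus not those of the starts of the measured loci.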

How the data were processed

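RNA-seq of 2 libraries, 1 per condition, was analysed. Per the study's methods, the authors trimmed with Trim Galore, mapped to mm10 by means of HISAT2, and ran StringTie guided by GENCODE vM27. The submitters' processing notes also name SAMtools, without its role. Tool versions are not given in the sources used here. Each deposited table gives every entry its coverage (mean read depth per base, unscaled), FPKM and TPM. In the deposited TPM column the assembled loci alone sum to 1000000. Because vM27 positions refer to GRCm39 and the reads to mm10, entries with gene names were not used, and the assembled loci were given to GENCODE vM21 genes by exon bases (at least 50, same strand).

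TPM was summed per gene, and log2 ratios used a pseudocount of 1 over genes that reached 1 TPM in M, MR or both. A gene with no locus was set to 0 there. A coverage given for a gene is that of its locus with the most TPM. Log2 ratios by coverage use the coverage summed over all loci of the gene, per aligned base. With 1 library per condition there was no test. Genes past a log2 ratio of 1 or -1 are counted beside the share over all genes. Read counts per gene were not analysed here, so that no interval for counting error is given. The named genes are the 10 largest rises and 10 largest falls with a TPM of at least 2, the 10 with the highest mean TPM, and the listed genes. The lncRNA genes, the lists and the rule were chosen with earlier results of these data known. Sequences are from RefSeq (GRCm38.p6). Alternatives were another pseudocount, filter, unit, scaling, exon minimum, threshold and treatment of strand and of shared loci. The assignment was tested on loci simulated from the spans of annotated genes on their own strand. Loci without strand or on the opposite strand were not simulated, so the test could not address them. The software was Python 3.11.15 with pandas 2.3.3, numpy 2.4.6, matplotlib 3.10.9 and scipy 1.17.1. A list of marker genes is not reported here.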

Additional observations from a re-analysis of the deposited data

Results flagged for a closer look

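At 3 lncRNA positions, signal outside the loci assigned by strand was higher in MR than in M. At Malat1 the locus on the opposite strand was at 416 TPM in MR and 327 in M (log2 ratio 0.34). At 2900097C17Rik the locus on the opposite strand was at 111 TPM in MR and 89.1 in M (0.32). At Neat1 the locus without strand was at 408 TPM in MR and 382 in M (0.10), a log2 ratio below the median of 0.19 over all genes. The log2 ratios at Malat1 and 2900097C17Rik were above that median. Median-of-ratios scaling lowered log2 ratios by 0.17 before the pseudocount. The opposite-strand locus at Mir142hg was lower in MR, at 19.7 TPM in M and 15.3 in MR. At Nron the opposite-strand locus, at 19.9 and 17.8 TPM, was that of Mvb12b and extended past Nron on both sides. These differences were not tested.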

How the results depend on the processing

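With 1 library per condition no replicate could be left out, and read counts per gene were not analysed here. No paired analysis was possible because each condition is 1 library. Against 234 lncRNA genes above 1 and 217 below -1, the counts were 65 and 72 once the filter was raised to 5 TPM, and 112 and 110 with FPKM, whose values are 2.16 and 2.25 times smaller than TPM at the same pseudocount. Genes assembled in both libraries gave 51 and 48, and a log2 threshold of 2 gave 68 and 61. Clear positions gave 131 and 111, or 29 and 29 when assembled in both; these last selections were chosen after seeing the data. The median log2 ratio of lncRNA genes, 0.04, became -0.083 with median-of-ratios scaling and -0.10 without mitochondrial loci and the 20 most abundant genes. With loci without strand also assigned, A530040E14Rik was at -2.85 and Neat1 at 0.091 on the log2 scale, and by coverage per aligned base Lockd was at -0.79, Gm14005 at -1.28 and Dleu2 at -1.36, each on the other side of 0. The cause of these changes was not tested. Of 945 values for single genes under the alternatives, 917 stayed on their side of the threshold, 15 no longer passed it, 8 newly passed it and 5, named above, turned. Values could not move where genes were only selected, by another filter, by shared loci or by a locus in both libraries. Such values count among the 917, so that number is not a measure of stability. Of the 917, 3 within the threshold changed sign: Gm42418 with median-of-ratios scaling, and Trp53cor1 and Snhg1 by coverage. The median-of-ratios scaling lowered log2 ratios by 0.17 before the pseudocount.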
